A study of Saccharomyces cerevisiae with 8 samples.

Results

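Heat shock and general stress genes of Saccharomyces cerevisiae were followed over 8 Affymetrix arrays. The set holds 50 genes, 27 chaperones and heat shock proteins and 23 general stress genes, out of 5656 genes with a probe set that names 1 gene. Probe sets of members were found by symbol in the platform annotation, with no filter on signal. The list of members was itself chosen with earlier results of these data known. All 50 had a probe set, and 48 were above background on all 8 arrays. HSP30 was above background on 7 arrays and ALD3 on 5.

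Yeast cells meet heat and other stress with a pair of partly overlapping programmes. The transcription factor Hsf1 drives genes for chaperones, which hold, fold or untangle unfolded proteins. The factors Msn2 and Msn4 drive a broader set for trehalose and glycogen, antioxidant defence, osmolytes and protein turnover, and several chaperone genes answer to both. Many of these messages climb steeply within minutes of a temperature upshift and settle back as cells adapt.

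The study, titled around snoRNA processing by RNase III, compared 3 strains labelled wild type, rnt1d and rnt1ts, each at 26 C and 37 C. At 26 C the wild type and the rnt1d strain were each hybridised on 2 arrays, called biological replicates in the labels, and rnt1ts at 26 C and all 3 strains at 37 C on 1 array each. RNT1 encodes the yeast RNase III; no label explains the alleles behind rnt1d and rnt1ts, the strain background or the time spent at 37 C. All cultures were growing exponentially, in complete medium with or without leucine per the growth protocol, and the labels do not say which array had which. Total RNA was biotin-labelled, 1 array per sample, and signals are quantile-normalised intensities. A signal says how bright a probe set was and is compared here between arrays for the same gene, never between genes.

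The mutant arrays at 37 C went against their labels. RNT1 was at 181 and 149 in wild type at 26 C, 1.31 and 2.03 in rnt1d at 26 C, 39.8 in rnt1ts at 26 C and 269 in wild type at 37 C, yet 71.4 on the array labelled rnt1d 37 C and 1.26 on the array labelled rnt1ts 37 C. STE2, which marks a cells, was at 4.09 in rnt1ts at 26 C and 10.5 on the array labelled rnt1d 37 C. On the 6 remaining arrays it was at 140 to 306. MF(ALPHA)1, which marks alpha cells, was at 2988 and 1957 on those 2 and at 33.5 or less elsewhere. Further alpha-cell genes did not all go with it. MF(ALPHA)2 was at 1112 and 13.4 on those 2 arrays and SAG1 at 508 and 69.7. Both lower values lay within the range of the 6 remaining arrays. STE3 was at 281 and 60.5, against 19.5 or less elsewhere. So those 2 arrays did not read alike for all alpha-cell genes. No array was moved, and mating type cannot be told apart from strain in the comparisons that use those 2 arrays. Hybridisation controls, bacterial and phage transcripts spiked in by the platform's protocol, had a median deposited signal of 59.8 in wild type replicate 2 and 31.5 in rnt1d replicate 2 at 26 C, against 1.64 to 4.83 on the 6 other arrays.

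All tests are limma contrasts of 6 group means over the 8 arrays, with Benjamini-Hochberg adjustment over 9275 probe sets and a call at an adjusted p under 0.05. Only the 2 pairs at 26 C give a spread, and each lone array was assumed to vary like them. The 5 comparisons below share the 2 wild type arrays at 26 C, so they are not independent of each other. Changes are on the log2(signal + 16) scale, which understates dim genes. In a culture, a different share of cells expressing a gene and a different amount of RNA per cell cannot be told apart.

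Spread over the 8 arrays differed widely among members. HSP26 spanned 4.77 log2 units, HSP12 4.04, DDR2 3.68, GPD1 3.34, GAD1 2.60 and HSP30 2.48. HOR7, a gene named for its response to high osmolarity, spanned 0.26, the Hsp70 gene SSA1 0.35 and the Hsp110 gene SSE1 0.43. So the set held genes at nearly constant signal beside genes whose signal differed widely. HOR7 and SSA1 were bright on every array, at 3825 or more, and whether signals that bright can show a difference was not tested.

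The first question the design raises is what wild type cells did at 37 C relative to 26 C. The small heat shock genes HSP26 and HSP12 had by far the highest changes among the members, 3.25 (SE 0.84) and 2.48 (SE 0.92), while several parts of the cytosolic Hsp70 machinery had lower signal: SIS1 at -1.54 (SE 0.26), SSA2 at -1.11 (SE 0.21) and FES1 at -1.09 (SE 0.19). None of these passed limma's test, the smallest adjusted p of any member being 0.356. Called members were 0 of 27 chaperones and 0 of 23 general stress genes in either direction, against 0% of 9275 probe sets called higher and 0% lower. At an unadjusted p under 0.05 there were 12 chaperones, 4 general stress genes and 894 probe sets. The median change was -0.04 for chaperones and 0.06 for general stress genes, against -0.02 over all probe sets.

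HSP26 encodes a small heat shock protein that binds unfolded proteins. Its signals at 26 C were 242 and 43.7 in wild type, 76.5 and 149 in rnt1d and 27.2 in rnt1ts. At 37 C they were 1163 in wild type, 835 on the array labelled rnt1d and 72.1 on the array labelled rnt1ts. The wild type array at 37 C and the array labelled rnt1d 37 C stood above all 6 others, and at 26 C wild type replicate 2 minus replicate 1 was itself -2.11 log2 units. Against replicate 1 alone, which has the same dim hybridisation controls as the array at 37 C, the change was 2.19.

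HSP12 encodes a small membrane-associated protein made under many stresses. Its signals at 26 C were 879.9 and 227 in wild type, 422 and 1375 in rnt1d and 912 in rnt1ts. At 37 C they were 2582 in wild type, 3978 on the array labelled rnt1d and 427 on the array labelled rnt1ts. The same pair of arrays was highest, and wild type replicates at 26 C again lay far apart, replicate 2 minus replicate 1 being -1.88 log2 units. Against replicate 1 alone the change at 37 C was 1.54.

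HSP42, the other small heat shock protein of the cytosol, was at 118 and 157 in wild type at 26 C, 143 and 259.7 in rnt1d, 179 in rnt1ts and 166 in wild type at 37 C. It was at 350.4 on the array labelled rnt1d 37 C and 129 on the array labelled rnt1ts 37 C. HSP104, the disaggregase that pulls proteins out of aggregates, was at 168 and 181 in wild type at 26 C and at 267 at 37 C, a change of 0.57 (SE 0.21). Its signals on all 6 arrays other than wild type at 26 C, 217 to 319.6, lay above both of those.

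The cytosolic Hsp70 genes differed from each other at 37 C in wild type. SSA4, the stress-inducible copy, was at 57.0 and 54.9 at 26 C and 124 at 37 C, and SSA3, another inducible copy, at 13.7 and 19.4 against 37.3. SSA2, a constitutive copy, was at 4366 and 3548 at 26 C and 1817 at 37 C, whereas SSA1 was at 5634 and 5069 against 5171. SSA1 and SSA2 are close paralogues whose probe sets can share signal. A further probe set naming both was at 1344 and 1399 at 26 C against 912 at 37 C, and another that names both sat at the top of the normalised scale on most arrays and shows no difference reliably.

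Several partners of Hsp70 had lower signal in wild type at 37 C, none of them called. SIS1, an essential Hsp40 co-chaperone, was at 667 and 806 at 26 C and at 242 at 37 C. FES1, a nucleotide exchange factor that releases substrates from Hsp70, was at 422 and 487 against 204, and YDJ1, the major cytosolic Hsp40, at 1840.4 and 1559.8 against 1140.4. BTN2, which sorts misfolded proteins into deposits, was at 57.4 and 106 against 29.0, and its paralogue CUR1 at 39.5 and 69.0 against 30.1. Each of these 5 genes was lower at 37 C than in either wild type array at 26 C. How often this held over all probe sets was not counted, so it only describes the genes named. The Hsp110 genes SSE1 and SSE2 had changes of -0.14 and -0.32.

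Among Hsp90 genes, HSP82, the inducible copy, was at 386 and 651 in wild type at 26 C and 723 at 37 C. HSC82, the constitutive copy, was at 2039 and 1939.6 against 1370.4, a change of -0.53 (SE 0.18). CPR6, a cyclophilin that binds Hsp90, was at 676 and 662 against 1014, a change of 0.59 (SE 0.17), and STI1, which bridges Hsp70 and Hsp90, at 875 and 1054 against 582, a change of -0.71 (SE 0.19). AHA1, an activator of the Hsp90 ATPase, was at 286 and 362 against 369. A further probe set naming both HSP82 and HSC82 was at 1489 and 1707 at 26 C against 896 at 37 C. Its change of -0.82 (SE 0.18) had the sign of HSC82 and was opposite to that of HSP82. The Hsp90 group thus had members on both sides of 0, and none was called.

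Mitochondrial chaperones, the regulator and HSP30 had differences of varied size in wild type at 37 C, none of them called. HSP60 and HSP10, the mitochondrial chaperonin pair, had changes of 0.02 and 0.16, and HSP78, the mitochondrial disaggregase, -0.04. SSC1, the mitochondrial Hsp70, was at -0.47, and its Hsp40 partner MDJ1 at -0.59. HSF1, the heat shock factor itself, was at 140 and 132 at 26 C and 150.4 at 37 C. HSP30, a plasma membrane protein that restrains the proton pump, was at 13.8 on both wild type arrays at 26 C and 41.1 at 37 C.

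General stress genes in wild type at 37 C had changes of both signs, also within the glycogen and the trehalose pathway. GPH1, glycogen phosphorylase, was at 105 and 86.0 at 26 C and 254 at 37 C, a change of 1.28 (SE 0.23), and GSY2, the main glycogen synthase, at 54.8 and 60.3 against 89.9. GLC3, the glycogen branching enzyme, had the opposite sign, with 69.3 and 94.1 against 36.6 and a change of -0.88, as had GSY1, the minor synthase, at -0.41. The trehalose synthase gene TPS2 was at 173 and 189 against 100.4, a change of -0.76 (SE 0.23), and TPS1, TSL1 and the trehalase gene NTH1 had changes of -0.41, 0.25 and 0.32. YGP1, a secreted glycoprotein, and DDR2, a small stress-induced protein of unknown function, had changes of 0.72 and 0.92. The osmolyte gene GPD1, glycerol-3-phosphate dehydrogenase, was at -0.68, the catalase gene CTT1 at -0.24 and the polyubiquitin gene UBI4 at -0.23.

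With the hybridisation control signal as a term, 0 members were called in wild type at 37 C, against 0.0431% of probe sets higher and 0% lower. The call counts were also 0 without the 2 mutant arrays at 37 C, and without either wild type array at 26 C. On the deposited scale HSP26 alone was called, and the chaperone median was 0.11 in place of -0.04; with each array scaled to 1 median it was -0.38 and that of general stress genes -0.045.

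**Figure D1:**
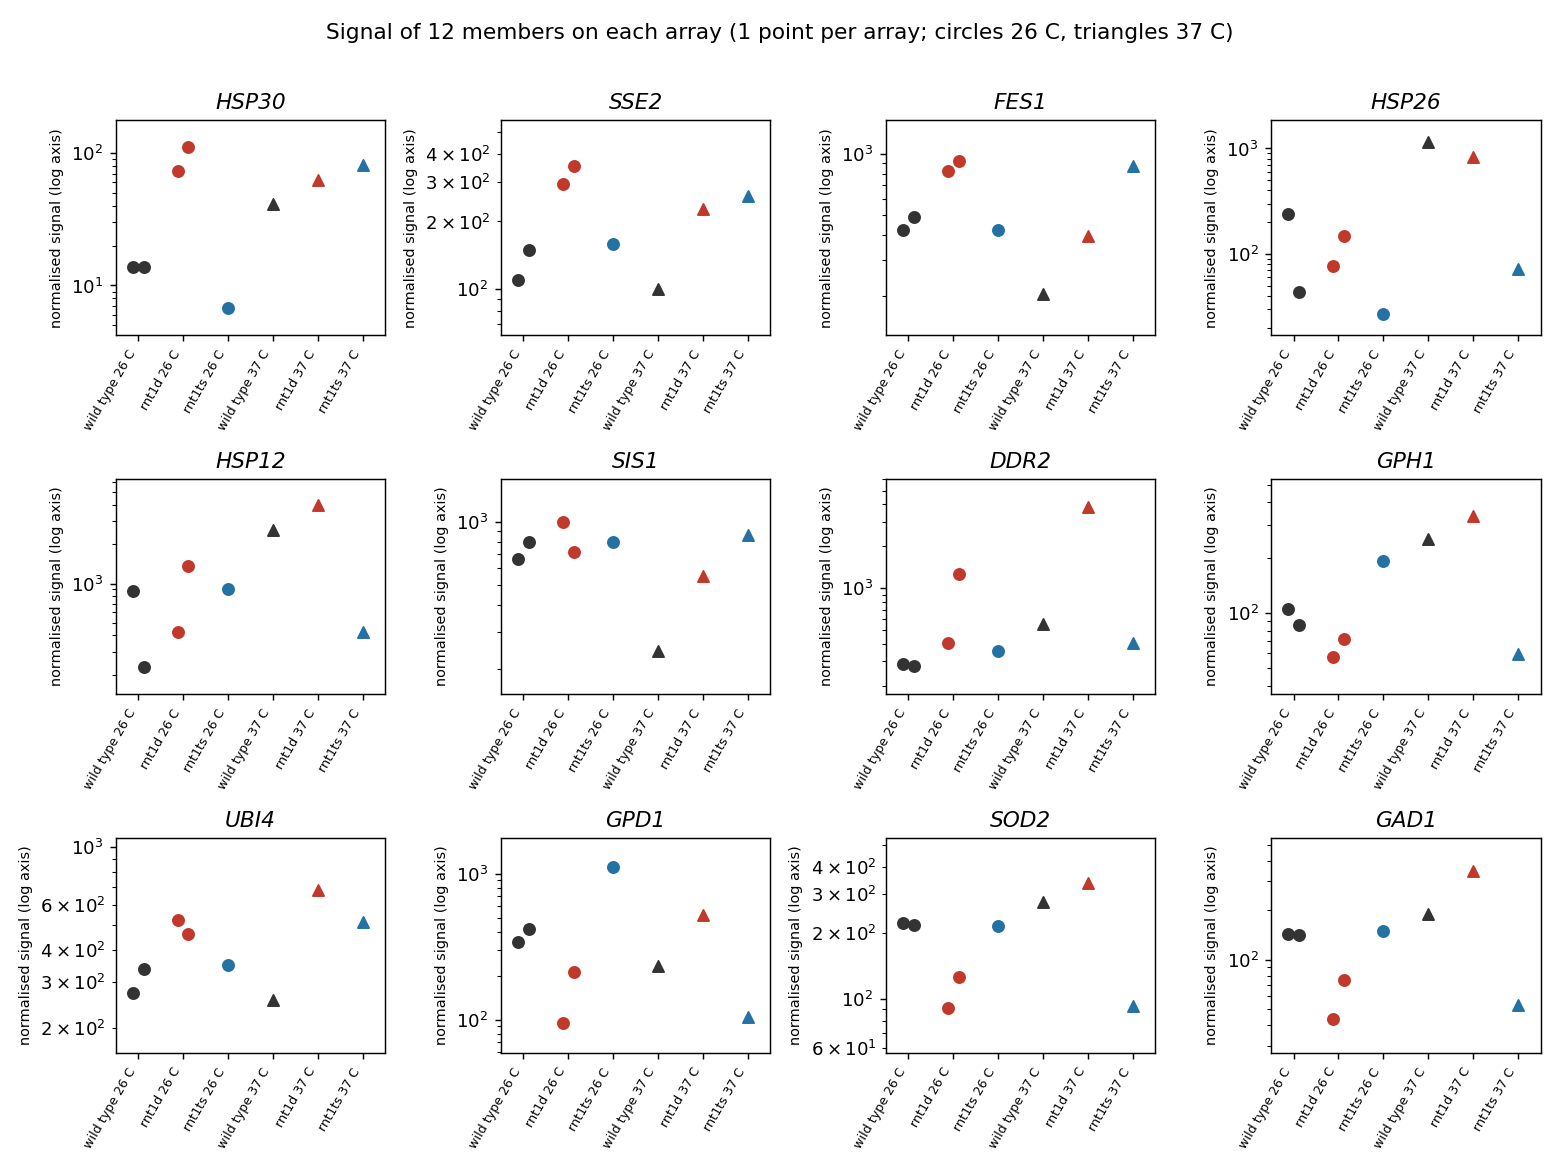
Quantile-normalised signal (log axis) of 12 members on each of the 8 arrays, 1 point per array, coloured by strain, with circles for 26 C and triangles for 37 C. HSP26 and HSP12 are highest on the wild type array at 37 C and the array labelled rnt1d 37 C, whereas HSP30, SSE2 and FES1 are high on both rnt1d arrays at 26 C and the array labelled rnt1ts 37 C.

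In rnt1d at 26 C the called chaperones did not include HSP26 or HSP12. HSP30, SSE2 and FES1 rose, 3.57-fold, 2.35-fold and 1.89-fold on the log2(signal + 16) scale, and no chaperone fell. The calls in rnt1d were 3 of 27 chaperones, or 11.1%, against 3.54% of probe sets called higher and 1.95% called lower. The chaperone median was 0.46 with 21 of 27 above 0, against -0.03 over all probe sets. None of the 23 general stress genes was called, and 13 of them had an unadjusted p under 0.05, against 2165 of 9275 probe sets.

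HSP30 was at 13.8 on both wild type arrays and at 73.2 and 111 in rnt1d, a change of 1.83 (SE 0.23, limma adjusted p = 0.0146). It was at 6.74, not above background, in rnt1ts at 26 C and at 62.6 and 81.8 on the arrays labelled rnt1d and rnt1ts at 37 C. The groups at 26 C did not overlap. Paired by their hybridisation controls, the 2 differences of rnt1d from wild type were 1.58 and 2.09.

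SSE2, an Hsp110 that releases nucleotide from Hsp70, was at 109.8 and 149 in wild type and at 294 and 353 in rnt1d, a change of 1.23 (SE 0.20, limma adjusted p = 0.0326). Its paralogue SSE1 was at 961 and 1072 against 887 and 879.9, a change of -0.20. FES1 was at 422 and 487 against 824 and 917, a change of 0.92 (SE 0.16, limma adjusted p = 0.0357). Thus 2 of the 3 exchange factors of cytosolic Hsp70 in the set rose and 1 did not. The differences within pairs of like hybridisation controls were 1.30 and 1.16 for SSE2 and 0.94 and 0.89 for FES1.

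These 3 calls depended on the arrays and on the scaling. On the deposited scale none of the 3 was called, and with each array scaled to 1 median HSP30 was called higher, SSE2 and FES1 were not, and SOD2 was called lower. Without either wild type array at 26 C, or without rnt1d replicate 2, none was kept, and without rnt1d replicate 1 only HSP30 was, with adjusted p of 0.0371. With the 2 mutant arrays at 37 C left out, all 3 were called again.

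SSA4 and HSP78 lay just short of the threshold in rnt1d at 26 C, and further chaperones had higher signal without a call. SSA4 was at 116 and 181, a change of 1.16 (SE 0.23, limma adjusted p = 0.0503), and HSP78 at 174 and 232 against 71.9 and 102, a change of 1.09 (SE 0.23, adjusted p = 0.0528). MDJ1, at 234 and 391 against 143 and 162, had a change of 0.92, and HSP104, at 252 and 317, had 0.65. SSA3 was at 29.7 and 73.8, a change of 0.98, AHA1 at 479 and 619, a change of 0.73, and BTN2 at 122 and 232, a change of 0.97. All 7 were higher on both rnt1d arrays than on both wild type arrays. HSP26 and HSP12, the 2 that differed most at 37 C in wild type, had changes of -0.01 and 0.74 here. Within pairs of like hybridisation controls HSP26 differed by -1.48 and 1.46, opposite in sign, and HSP12 by -1.03 and 2.52.

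The lowest chaperone changes in rnt1d at 26 C were small. HSC82 was at -0.29, SSA2 at -0.21 and SSE1 and SSC1 at -0.20 each. The mitochondrial chaperonin HSP60 was at 1949 and 1933 in wild type and at 2832 and 2627 in rnt1d, a change of 0.49, and its partner HSP10 had a change of 0.30. HSF1 was at 158 and 253 in rnt1d, a change of 0.51. Over the 27 chaperones, 14 were higher and 2 lower on both rnt1d arrays than on both wild type arrays, that is 51.9% and 7.41%, against 25.1% and 29.2% of all probe sets.

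General stress genes in rnt1d at 26 C had changes of both signs. The repressor gene XBP1 was at 17.3 and 34.3 in wild type and at 55.2 and 145 in rnt1d, a change of 1.39 (SE 0.42). DDR2 was at 288 and 280.0 against 408 and 1272, a change of 1.30, and GLC3 at 123 and 242, a change of 0.96. UBI4 was at 273 and 338 against 525 and 461, a change of 0.67, and TSL1, a regulatory subunit of trehalose synthase, at 95.9 and 104 against 163 and 252, a change of 0.92. These 5 genes were higher on both rnt1d arrays, and none passed the test.

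The 3 lowest changes among general stress genes in rnt1d at 26 C were not called. GPD1 was at 343 and 421 in wild type and at 94.9 and 213 in rnt1d, a change of -1.31 (SE 0.35, limma adjusted p = 0.0919). GAD1, glutamate decarboxylase, was at 143 and 140.2 against 43.4 and 74.9, a change of -1.10 (SE 0.24, adjusted p = 0.0566). SOD2, the mitochondrial superoxide dismutase, was at 223 and 217 against 91.4 and 127, a change of -0.93 (SE 0.19, adjusted p = 0.0518). Of the 23 general stress genes, 12 were higher and 6 lower on both rnt1d arrays than on both wild type arrays (52.2% and 26.1%), against 25.1% and 29.2% of all probe sets, so the share lower was no larger than that background. The 3 others lower were GPH1, PGM2 and HOR7. DDR48, named for its response to DNA damage, was at 2677 and 2734 in wild type and overlapped it in rnt1d, at 1596 and 3123, whereas its second probe set was lower on both rnt1d arrays, at 309 and 504 against 580.4 and 601.

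With the hybridisation control signal as a term, 15 members were called higher and 3 lower in rnt1d at 26 C, against 8.45% and 6.91% of probe sets. The chaperones called were HSP104, SSA3, SSA4, HSP78, HSP30, SSE2, AHA1, FES1, BTN2 and MDJ1, and the general stress genes TSL1, DDR2, GLC3, UBI4 and XBP1. GPD1, GAD1 and SOD2 were the ones called lower. Those control signals separate replicate 1 from replicate 2 in both strains at 26 C, so this term and the replicate number hold the same split there. No label says what that split stands for.

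In rnt1ts at 26 C no member was called, with adjusted p of 0.307 or more, against 0.582% of probe sets called higher and 0.205% lower. Unadjusted p was under 0.05 for 0 chaperones, 8 general stress genes and 831 probe sets. The median change was 0.12 for chaperones and 0.48 for general stress genes, against -0.01 over all probe sets, with 19 of 23 general stress genes above 0. GPD1 had the highest change of any member, from 343 and 421 in wild type to 1105, or 1.50 (SE 0.43). With the hybridisation control signal as a term it was the 1 member called (1.83, limma adjusted p = 0.0163), against 1% of probe sets higher and 0.593% lower.

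Trehalose and glycogen genes in rnt1ts at 26 C included several above wild type. GPH1 was at 191, a change of 0.90, GSY1 at 91.2, a change of 0.72, and GSY2 at 99.9, a change of 0.66. TSL1 and TPS2, the latter at 335, had changes of 0.90 and 0.83, and TPS1 at 557 one of 0.48. All 6 lay above both wild type arrays at 26 C. Of the same pathways, NTH1, at 177, also lay above them, and GLC3, at 91.0, lay between them. The share of all probe sets above both arrays was not counted here, so this is a description only. ALD3, an aldehyde dehydrogenase of the stress response, was below background on both wild type arrays at 26 C. In rnt1ts it was at 27.2, at least 3.02-fold higher (limma adjusted p = 0.551). The lowest changes were those of DDR48 at -0.44, HOR7 at -0.21 and GRE1, a hydrophilin, at -0.15.

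Chaperones in rnt1ts at 26 C were close to wild type. HSP12 at 912 had a change of 0.99, BTN2 at 124 one of 0.56 and HSP78 at 122 one of 0.44. HSP26 was at -1.52 (SE 0.84) and SSA4 at -0.36. HSP30, not above background in rnt1ts, was at least 1.36-fold lower (limma adjusted p = 0.828). HSP26 and HSP12 thus had opposite signs here, and both values were smaller than the difference between the 2 wild type arrays they were compared with.

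The array labelled rnt1d 37 C had the widest general stress pattern. Against wild type at 26 C, 6 of 23 general stress genes rose (26.1%) and 0 fell, compared with 2.67% of probe sets called higher and 1.73% lower. DDR2, GPH1, YGP1, GSY2, UBI4 and CTT1 were the 6. The general stress median was 0.97 with 21 of 23 above 0, against -0.02 over all probe sets. None of the 27 chaperones was called, 13 had an unadjusted p under 0.05 (1964 of all probe sets), and their median was 0.32.

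DDR2 rose most, from 288 and 280.0 in wild type at 26 C to 3790.5, a change of 3.67 (SE 0.60, limma adjusted p = 0.038). On the wild type array at 37 C it was at 551, on the rnt1ts array at 26 C at 358 and on the array labelled rnt1ts 37 C at 408. Its highest signal elsewhere was 1272, in rnt1d replicate 2 at 26 C. The array labelled rnt1d 37 C therefore stood apart from all others for this gene.

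The glycogen genes GPH1 and GSY2 rose on the array labelled rnt1d 37 C, to 336 and 150.1, changes of 1.67 (SE 0.23, limma adjusted p = 0.0275) and 1.18 (SE 0.21, adjusted p = 0.0423). For both, the wild type array at 37 C, at 254 and 89.9, and the rnt1ts array at 26 C, at 191 and 99.9, held intermediate signals. GSY1 and GLC3, from the same pathway, were at 32.6 and 33.1, changes of -0.42 and -0.98, the 2 general stress genes below 0. HOR7 came next, at 4582 against 4411 and 4436 in wild type at 26 C. YGP1 rose from 1128 and 846 to 2519, a change of 1.35 (SE 0.23, limma adjusted p = 0.0389).

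UBI4, which supplies ubiquitin for protein turnover, rose from 273 and 338 to 681, a change of 1.12 (SE 0.21, limma adjusted p = 0.0485). CTT1, the cytosolic catalase, rose from 13.6 and 13.7 to 42.1, a change of 0.97 (SE 0.18, adjusted p = 0.0493). CTT1 was dim on every array, between 9.16 on the wild type array at 37 C and 42.1. Its next highest signal was 30.0, in rnt1ts at 26 C.

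Several uncalled genes on the array labelled rnt1d 37 C had changes over 1 log2 unit. TSL1 was at 275, a change of 1.33 (SE 0.28, limma adjusted p = 0.0636), TKL2, a transketolase, at 88.5, a change of 1.25, and GAD1 at 345, a change of 1.19. ALD3 was at 51.2, at least 5.67-fold higher than in wild type at 26 C, where it was below background (limma adjusted p = 0.0839). A probe set naming ALD2 and ALD3 together, at 52.2 and 48.3 against 247, was called higher (1.99, adjusted p = 0.031). PNC1, a nicotinamidase, was at 958 against 484 and 532, and PGM2, phosphoglucomutase, at 158 against 75.0 and 77.3. Both TKL2 probe sets that were not used to represent the gene were also higher, at 108 and 63.0 against 19.7 or less in wild type at 26 C.

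Chaperones on the array labelled rnt1d 37 C had changes of both signs. HSP12 and HSP26 had changes of 3.10 (SE 0.92) and 2.78 (SE 0.84), and HSP30 one of 1.40 (SE 0.28, limma adjusted p = 0.0551). HSP42 was at 1.27, AHA1 at 1.13, SSA3 at 1.08 and HSP104 at 0.82. SSC1 was at -1.06, SSA2, at 2039, at -0.94, and HSC82 and MDJ1 at -0.43 each. SIS1 and FES1 were at 551 and 393, below both wild type arrays at 26 C but closer to them than the wild type array at 37 C was. SSE2 was at 228 against 109.8 and 149 in wild type at 26 C.

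No member remained called on this array without either wild type array at 26 C. Without rnt1d replicate 1 or 2 at 26 C, HSP30, TSL1, GPH1, DDR2, GAD1 and ALD3 were called higher and SSC1 lower. With the hybridisation control signal as a term 23 members, 7 of them chaperones, were called higher and SSA2 and SSC1 lower, against 5.47% and 4.73% of probe sets. On the deposited scale 4 members were called higher, DDR2 and, outside the 6 named above, HSP26, HSP12 and ALD3. With each array scaled to 1 median, GPH1 alone was called, and the chaperone median was -0.07 in place of 0.32.

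The array labelled rnt1ts 37 C had no member called, against 1.06% of probe sets called higher and 0.571% lower. Unadjusted p was under 0.05 for 7 chaperones, 4 general stress genes and 1666 probe sets. The median was 0.25 for chaperones, with 20 of 27 above 0, and 0.14 for general stress genes, against -0.02 over all probe sets. With each array scaled to 1 median, both list medians were below 0, at -0.089 and -0.0076.

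HSP30 came nearest to a call there, at 81.8 and a change of 1.71 (SE 0.28, limma adjusted p = 0.0525). FES1 at 867 and SSE2 at 261 had changes of 0.91 and 0.94, SSA4 at 123 one of 0.95 and HSP78 at 161 one of 0.79. Signals below wild type at 26 C were those of GPD1 at 104, a change of -1.73 (SE 0.43), GAD1 at 53.3, a change of -1.19, and SOD2 at 92.9, a change of -1.12. General stress genes lay on both sides of 0, with 12 of 23 above it. The highest change was that of ALD3, at 0.79. It was at 22.0, at least 2.44-fold above wild type at 26 C, where it was below background. UBI4 was at 514 against 273 and 338, and TSL1 at 160 against 95.9 and 104. HSP26 at 72.1 and HSP12 at 427, with changes of -0.49 and -0.07, lay between the 2 wild type arrays at 26 C. HSP82, at 419.5 against 386 and 651, lay between them too. With the hybridisation control signal as a term, HSP78, HSP30, SSE2, FES1 and BTN2 were called higher and SOD2 and GPD1 lower, against 3.49% and 2.52% of probe sets.

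**Figure D2:**
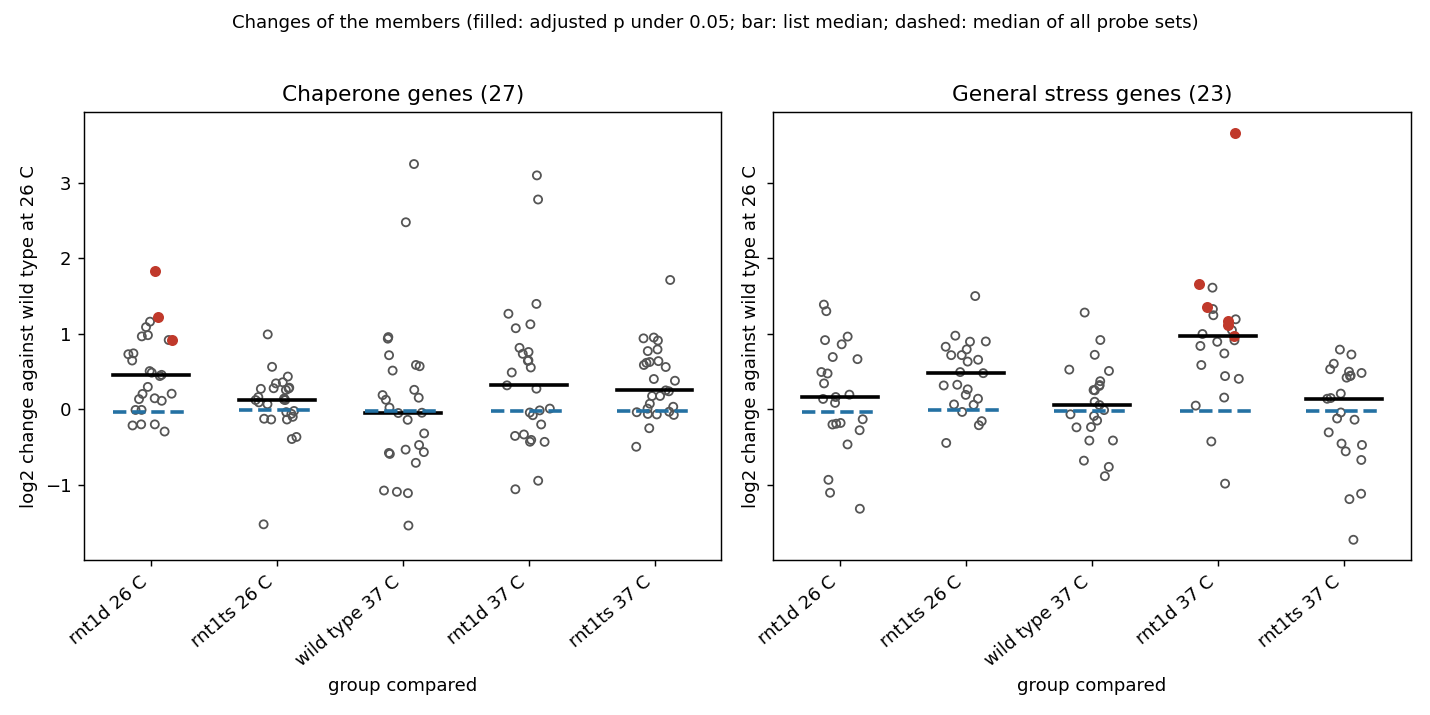
Log2 change from wild type at 26 C of each chaperone and general stress gene (points) in the 5 comparisons, with list medians as black bars, the median of all probe sets as a dashed line and called genes filled. The 6 called general stress genes are on the array labelled rnt1d 37 C and the 3 called chaperones in rnt1d at 26 C.

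Differences between strains at 37 C set 1 array against 1 array; they were not tested, and those of at least 2-fold are given as a description. The array labelled rnt1d 37 C was at least 2-fold above wild type at 37 C for 4 chaperones and 9 general stress genes and below for 0, against 2.58% and 3.3% of probe sets. The chaperones were STI1 (1.20 log2 units), SIS1 (1.13), SSE2 (1.08) and HSP42 (1.01). The general stress genes were DDR2 (2.75), TPS2 (1.50), UBI4 (1.36), TKL2 (1.33), CTT1 (1.21), GPD1 (1.12), TSL1 (1.08), PNC1 (1.04) and ALD3, which was at 51.2 against 6.88, not above background, in wild type at 37 C. Median differences were 0.24 for chaperones and 0.79 for general stress genes.

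The array labelled rnt1ts 37 C differed from wild type at 37 C in both directions. It was at least 2-fold higher for 7 chaperones and 2 general stress genes and lower for 2 and 4, against 3.59% and 3.32% of probe sets. HSP26, at -3.74 log2 units, and HSP12, at -2.55, were lower. FES1 (2.00), SIS1 (1.78), BTN2 (1.69), SSE2 (1.26), MDJ1 (1.23), STI1 (1.11) and SSA2 (1.05) were higher. Of these 7, FES1, SIS1, BTN2 and SSA2 had been at least 1 log2 unit lower in wild type at 37 C than at 26 C. Both differences use the same single wild type array at 37 C, so a low reading there enters both. Among general stress genes GLC3 (1.33) and TPS2 (1.18) were higher, and GPH1 (-1.84), GAD1 (-1.56), SOD2 (-1.43) and GPD1 (-1.05) lower.

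Whether the strains differed in their temperature effect was tested as an interaction, with the mutant arrays taken by their labels. No member was called in either contrast, against 0.0647% of probe sets higher and 0% lower for rnt1d and 0.0539% higher and 0.194% lower for rnt1ts. The smallest adjusted p of a member was 0.254 for rnt1d, for GAD1, whose effect was 1.92 log2 units higher than that of wild type (SE 0.41). For rnt1ts it was 0.0725, for GPH1, at -2.74 (SE 0.35), followed by FES1 at 2.10 (SE 0.29, limma adjusted p = 0.0935). GPD1 had interaction values of 2.43 for rnt1d and -2.55 for rnt1ts. Since RNT1 and mating-type signals of both mutant arrays at 37 C went against their labels, these contrasts hold only as far as the labels do.

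**Figure D3:**
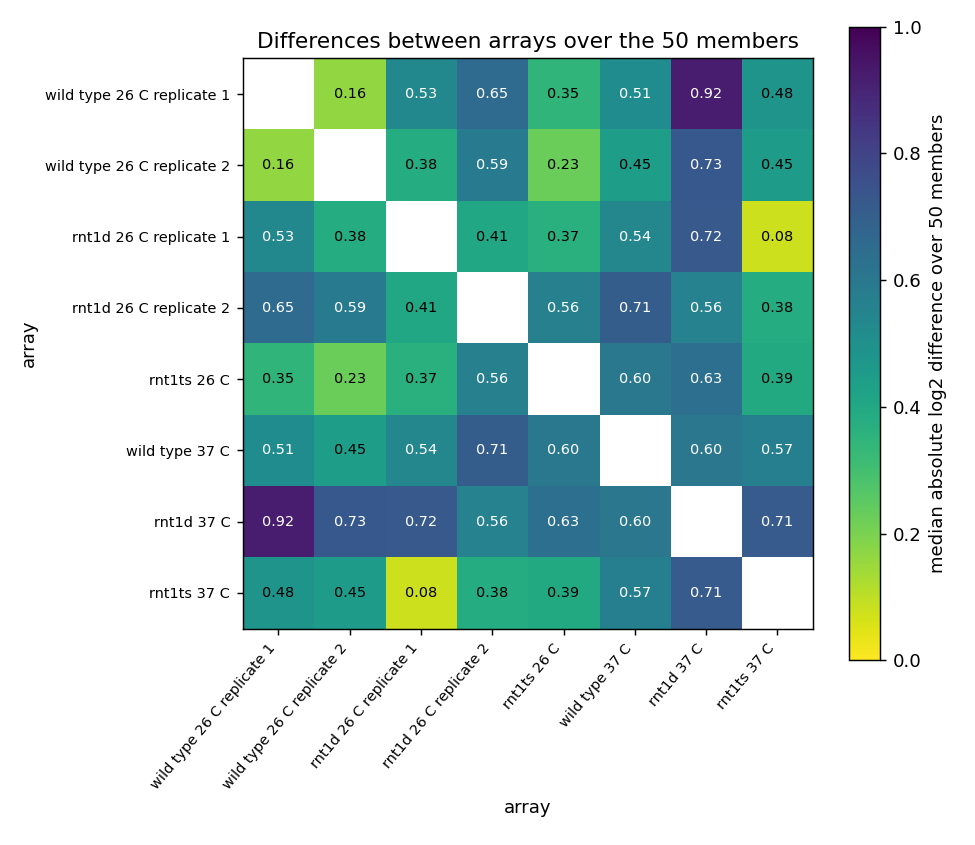
Median absolute log2 difference over the 50 members for each pair of the 8 arrays. The smallest value, 0.0763, joins rnt1d replicate 1 at 26 C and the array labelled rnt1ts 37 C, and the largest, 0.924, joins wild type replicate 1 at 26 C and the array labelled rnt1d 37 C.

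Over the 50 members, the arrays most alike were rnt1d replicate 1 at 26 C and the array labelled rnt1ts 37 C. Their median absolute difference was 0.0763 log2 units over the members and 0.127 over all probe sets, the smallest of 28 pairs. Pairs of replicates lay further apart, at 0.161 for wild type and 0.406 for rnt1d at 26 C. For DDR2 both arrays read 408, and for HSP26 they read 76.5 and 72.1. These distances are descriptions of single arrays with no test.

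Other genes of the same pathways, outside the set of 50, gave a background for these counts. Of 50 further genes listed with the chaperones, 2 rose and 1 fell in rnt1d at 26 C. Not all genes of this list are themselves chaperones, MBF1 being a co-activator gene. ECM10, a mitochondrial Hsp70, rose by 1.46 (limma adjusted p = 0.0155) and MBF1 by 1.11 (adjusted p = 0.0255). HSP31, a stress-responsive glyoxalase and chaperone, was at -2.21 (adjusted p = 0.0135). The shares were 4% higher and 2% lower, against 3.54% and 1.95% of all probe sets, and the median of the 50 was -0.01. On the array labelled rnt1d 37 C 1 rose, HCH1, an activator of Hsp90, at 1.05, and on the array labelled rnt1ts 37 C 1 fell, HSP31 at -2.24. In rnt1ts at 26 C and wild type at 37 C, 0 were called.

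Of 77 further stress genes measured, 4 rose and 5 fell in rnt1d at 26 C (5.19% and 6.49%, against 3.54% and 1.95% of all probe sets). On the array labelled rnt1d 37 C 16 rose and 1 fell (20.8% and 1.30%, against 2.67% and 1.73%). Those called on the array labelled rnt1ts 37 C were 2 higher and 1 lower (2.60% and 1.30%, against 1.06% and 0.571%). SPI1, a cell wall protein, rose by 3.37 log2 units, CYC7, the hypoxic cytochrome c isoform, by 1.78 and PRB1, a vacuolar protease, by 1.44 in rnt1d at 26 C, where GRE2, a methylglyoxal reductase, fell by 1.87. On the array labelled rnt1d 37 C, GPX1, a glutathione peroxidase, rose by 3.05, SOL4, of the pentose phosphate pathway, by 2.73, TFS1, an inhibitor of carboxypeptidase Y, by 2.67 and PRB1 by 1.52. On the array labelled rnt1ts 37 C, SPI1 and PRB1 rose by 3.12 and 1.29 and GRE2 fell by 1.93. In wild type at 37 C and in rnt1ts at 26 C, 0 of the 77 were called.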

How the data were processed

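The deposited intensity values, 1 linear signal per probe set, are the authors' MAS5 output according to the submitters' processing notes. They were not on a common scale, with array medians from 31.1 to 70.1. The table holds 9335 probe sets, 60 of them controls. All were quantile-normalised between the 8 arrays and taken as log2(signal + 16). The other 9275 went into two-sided tests with limma 3.58.1 in R 4.3.3 (6 group means, variance trend, 2 groups with replicates), after checks on simulated data. Probe sets were named from the platform annotation: 6504 name 1 gene, 328 several and 2443 none here. A gene with several probe sets (DDR48 and TKL2 among the members) was represented by the brightest. Background on an array was the highest of 19 non-yeast control probe sets, 3.48 to 10.7. Where a group was not above it, folds are lower bounds, computed on mean log2 signals against that background level, or against the dim signal where this was higher.

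Named were all called members, the 3 highest and 3 lowest changes of each list, and up to 4 called further genes per list and comparison; other members are given to account for each pathway. Members, lists and the use of quantile normalisation were chosen with earlier results of these data known. Alternatives were the deposited scale, median scaling, pseudocounts of 1 and 64, a filter at the 25th percentile of mean signal, no variance trend, the mean of a gene's probe sets, each 26 C replicate left out and a replicate block. A term for the hybridisation control signal and leaving out the 2 mutant arrays at 37 C were added after the data were seen. The few arrays limit the precision, and p-values measure only the spread between the replicate arrays.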

Additional observations from a re-analysis of the deposited data

How the results depend on the processing

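Few arrays limit every call, and the cause of a moved value was not tested. In rnt1d at 26 C, 3 members were called higher and 0 lower. In brackets are the counts over all probe sets, higher and lower, of 9275 unless given. The deposited scale called 0 members higher (69 and 31). Median scaling called 1 higher (HSP30) and 1 lower (SOD2) (228 and 336). A pseudocount of 1 gave 5 and 2 (397 and 239), as did the mean of a gene's probe sets (433 and 258 of 8427). The 25th percentile filter gave 6 and 3 (551 and 344 of 6956). Leaving out 1 array at a time gave 0 to 3 higher and 0 to 1 lower. With the replicate number as a block 15 were higher and 3 lower, as with the hybridisation control term; same-numbered arrays of the 2 strains deviated together over 9275 probe sets (r = 0.31), a single pair of pairs that does not show the numbers to be shared. Medians there were 0.20 for chaperones with median scaling (0.29 to 0.50 leaving out arrays) and, for general stress genes, 0.28 unscaled and 0.068 after median scaling (0.086 to 0.27). In rnt1ts at 26 C the control term called 1. Medians there were 0.53 and 0.83 on the deposited scale, and for general stress 0.33 with median scaling, 0.28 with a pseudocount of 64 and 0.65 with the term; leaving out arrays gave 0.018 to 0.12 for chaperones and 0.34 to 0.52 for general stress. In wild type at 37 C the deposited scale called 1 (HSP26), with medians of 0.11 and 0.23; median scaling gave -0.38 and -0.045, and the additive model and the control term 0.24 and 0.27 for general stress.

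On the array labelled rnt1d 37 C, 6 called higher became 4 on the deposited scale (HSP26, HSP12, DDR2 and ALD3), 1 with median scaling, 14 higher and 1 lower with the filter, 23 higher and 2 lower with the control term, and 0 to 6 higher and 0 to 1 lower leaving out arrays. Its chaperone median was -0.075 with median scaling, 0.47 with the term and 0.28 to 0.53 leaving out arrays, and its general stress median 1.20 unscaled, 0.82 after median scaling, 1.16 and 0.66 with pseudocounts of 1 and 64 and 1.13 with the term. On the array labelled rnt1ts 37 C, 1 was called higher with a pseudocount of 1, no variance trend or the mean of probe sets, 1 higher and 2 lower with the filter, and 5 higher and 2 lower with the term. Medians there were -0.089 and -0.0076 with median scaling, 0.30 for general stress on the deposited scale, and 0.25 to 0.37 for chaperones leaving out arrays. The interaction for rnt1d called 2 higher with the term (GAD1, GPD1); that for rnt1ts called 1 lower with a pseudocount of 1 or the mean of probe sets, 1 higher and 1 lower with the filter, and 1 higher and 2 lower with the term.

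The deposited scale moved the median of all probe sets to between 0.12 and 0.30 in the 5 comparisons with wild type at 26 C, so values on it are relative to that shift. Over all probe sets, the 509 called in rnt1d at 26 C became 100 on the deposited scale, 895 with the filter, 1439 with the block, 1425 with the term and 33 to 241 leaving out arrays. For the array labelled rnt1d 37 C, 408 became 118 unscaled, 271 after median scaling, 787 with the filter, 946 with the term and 21 to 439 leaving out arrays. For the array labelled rnt1ts 37 C, 151 became 59 unscaled, 238 with a pseudocount of 1, 394 with the filter, 244 with the mean of probe sets, 558 with the term and 23 to 105 leaving out arrays. In rnt1ts at 26 C, 73 became 115 with the filter, 148 with the term and 0 to 51 leaving out arrays, and in wild type at 37 C 0 became 14 on the deposited scale, 2 with a pseudocount of 64 or the mean of probe sets, 3 with the filter and 4 with the term. The interactions, with 6 and 23 called, gave 47 and 74 with the filter and 124 and 110 with the term, and 0 each without either wild type array at 26 C.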
